A study of Homo sapiens with 20 samples.

Results

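FSCN1 and 8 other genes of actin-binding proteins (CAP1, CAP2, CFL1, PLS3, LCP1, EZR, ACTN1 and ACTN4) were followed in 2 human melanoma cell lines, A375 and 1205Lu. These 9 genes were taken by name out of 58870 genes in the RNA-seq table, together with the 32 of 54563 consensus FRA1 peaks that lay within 10 kb of them. In each line, cells that received non-targeting siRNAs (si-NT) were compared with cells that received siRNAs against FRA1 (si-FOSL1), with 3 samples in each of the 4 groups. FRA1 is the AP-1 transcription factor encoded by FOSL1. The siRNA sequences and the time after transfection are not given in the sources used here, and neither is whether the replicates were separate cultures, so p-values measure only the spread between these samples. Cut&Run, which cuts and sequences the DNA around an antibody-bound protein, was done with an antibody against FRA1 (3 samples a line) and with IgG (1 sample a line).

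Actin filaments push and pull the cell membrane, and the proteins that bind them set the shape of the network. Fascin (the FSCN1 protein) packs filaments into the tight parallel bundles of filopodia and invadopodia, and is known from invasive tumor cells. Plastins (PLS3, and LCP1 of leukocytes) and alpha-actinins (ACTN1, ACTN4) also hold filaments together, with closer and wider spacing, respectively. Cofilin (CFL1) severs old filaments, the cyclase-associated proteins CAP1 and CAP2 help cofilin take them apart and recharge the released actin, and ezrin (EZR) ties filaments to the plasma membrane. AP-1 factors bind the sequence TGACTCA.

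The DNA under the FRA1 peaks gives the places at which these factors could bind. 4 peaks carry the results below: the peak over the FSCN1 start, a second FSCN1 peak inside the gene, an intronic CAP2 peak that had many reads in A375 only, and the ACTN4 intronic peak that had the most reads of the 32. All sequences are from the plus strand of GRCh38, with the AP-1 letters in capitals (TGAGTCA is the AP-1 sequence read from the other strand) and 40 bases on each side. Distances are from the first annotated start of the gene (GENCODE 44), and negative values lie upstream. None of these stretches overlaps an annotated exon. Measured from the centre of their peak, the letters lie at -217 bp (FSCN1), -195 bp (CAP2), and -532 and 72 bp (ACTN4).
FSCN1, AP-1 letters at -688 bp (chr7:5592085-5592171): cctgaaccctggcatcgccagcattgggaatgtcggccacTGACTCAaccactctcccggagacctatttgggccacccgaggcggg
CAP2 intron, AP-1 letters at 24316 bp (chr6:17417868-17417954): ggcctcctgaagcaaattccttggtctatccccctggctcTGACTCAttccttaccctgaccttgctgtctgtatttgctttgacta
ACTN4 intron, AP-1 letters at 35951 bp (chr19:38683557-38683643): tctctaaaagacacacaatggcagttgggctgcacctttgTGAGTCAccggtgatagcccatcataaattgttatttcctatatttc
ACTN4 intron, AP-1 letters at 36555 bp (chr19:38684161-38684247): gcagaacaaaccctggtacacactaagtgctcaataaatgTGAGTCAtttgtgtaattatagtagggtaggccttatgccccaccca
The second FSCN1 peak did not hold the AP-1 letters, and its central 201 bases are shown for comparison.
FSCN1, centre of the peak at 3243 bp (chr7:5595959-5596159): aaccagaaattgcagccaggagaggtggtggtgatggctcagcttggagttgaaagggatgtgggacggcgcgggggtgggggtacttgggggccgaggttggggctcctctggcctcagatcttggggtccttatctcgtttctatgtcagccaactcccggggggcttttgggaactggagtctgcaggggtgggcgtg

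RNA-seq totals ranged from 20573412 to 32518903 counts per sample. FOSL1 fell in si-FOSL1 cells, to 6.19% of si-NT in A375 and to 14.0% in 1205Lu, with no overlap of groups in either line. Melanocyte-lineage markers in si-NT cells were mainly SOX10 (mean 43.96 CPM, the count scaled by library size, in A375 and 914 in 1205Lu), MITF (52.2 and 3.55) and S100B (0.992 and 427), whereas PMEL, MLANA, TYR and DCT each stayed under 1 CPM in these groups. Of 7 leukocyte, 3 keratinocyte and 3 endothelial markers, CD68 and VWF reached a mean of 1 CPM in any group. The FRA1 samples held 3354095 to 5316527 reads in peaks in A375, but 583750 to 897407 in 1205Lu. IgG held 383994 and 314569. FRA1 samples 2 and 3 of 1205Lu could not be told apart beyond counting noise (chi-square of 1.007 per degree of freedom over 8327 peaks) and were counted as 1 sample, so means of 1205Lu peak counts have n = 2.

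FSCN1 mRNA fell on FRA1 silencing in both melanoma lines and had the lowest log2 fold change of the members in each of them. Its 95% intervals, given below, overlapped those of CAP2 (-1.30 to -0.93 in A375 and -2.24 to -1.52 in 1205Lu). In A375, si-NT samples had 111.2, 112.2 and 111.2 CPM and si-FOSL1 samples had 45.5, 46.7 and 44.9 CPM. In 1205Lu, si-NT samples had 481.3, 472.9 and 473.0 CPM and si-FOSL1 samples had 113.9, 123.3 and 120.5 CPM. Every silenced sample was therefore below every control of its line, while the silenced 1205Lu samples remained at about the level of A375 controls. The log2 fold change was -1.29 in A375 (95% interval -1.37 to -1.22, adjusted p = 9.8e-19, edgeR quasi-likelihood test with Benjamini-Hochberg adjustment over all tested genes, used throughout). In 1205Lu it was -2.01 (-2.07 to -1.96, adjusted p = 2.1e-21), which left 24.8% of the control level against 40.8% in A375. Among all tested genes, FSCN1 had the 243rd lowest fold change of 16899 in A375 and the 33rd lowest of 17136 in 1205Lu. In bulk samples, fewer cells with a transcript and less of it per cell cannot be told apart.

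CAP2, the less abundant of the cyclase-associated proteins, moved with FSCN1. In A375, its level was 21.3, 20.5 and 20.5 CPM in si-NT and 8.64, 10.4 and 10.0 CPM in si-FOSL1 samples. In 1205Lu, it was 12.2, 9.03 and 8.92 CPM in si-NT and 2.87, 3.17 and 2.25 CPM in si-FOSL1 samples. The groups did not overlap in either line. CAP2 fell by 1.11 on the log2 scale in A375 (SE 0.0882, adjusted p = 1.6e-10) and by 1.88 in 1205Lu (SE 0.172, adjusted p = 2.0e-08). The wider error in 1205Lu goes with the low level of the gene there, and with 1 control sample at 12.2 CPM above the other two.

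CAP1, the widely expressed paralog, went in opposite directions. It rose in A375, from 286.3, 281.3 and 274.8 CPM to 315.7, 331.7 and 320.5 CPM (log2 fold change 0.20, SE 0.0239, adjusted p = 2.5e-07). It fell in 1205Lu, from 241.0, 231.5 and 242.7 CPM to 175.0, 174.6 and 169.3 CPM (-0.48, SE 0.0268, adjusted p = 1.3e-11). Both changes were small beside those of CAP2, but the groups did not overlap in either line. CFL1 fell in both, by 0.24 in A375 (adjusted p = 1.0e-10) and by 0.31 in 1205Lu (adjusted p = 1.5e-09), from means of 606 ± 4.22 and 317 ± 3.73 CPM (SD, n = 3) in control cells to 513 ± 9.16 and 259 ± 7.64 CPM.

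The other crosslinkers did not share a direction. ACTN1 fell in both lines, by 0.36 in A375 (adjusted p = 5.0e-12) and by 0.23 in 1205Lu (adjusted p = 2.7e-09). ACTN4 fell in A375, by 0.15 (1558, 1569 and 1522 CPM against 1409, 1424 and 1383 CPM, adjusted p = 9.5e-09). In 1205Lu its samples overlapped, at 1406, 1466 and 1462 against 1434, 1459 and 1419 CPM, with a log2 fold change of -0.02 (95% interval -0.06 to 0.01, adjusted p = 0.25). PLS3 rose in A375, from 38.8, 40.04 and 41.4 CPM to 56.4, 56.4 and 54.9 CPM (log2 fold change 0.47, adjusted p = 8.3e-09). This was the larger of the 2 rises among the members in A375. In 1205Lu, PLS3 samples overlapped (75.9, 76.0 and 75.8 against 83.4, 74.9 and 74.8 CPM, log2 fold change 0.02, interval -0.08 to 0.11, adjusted p = 0.80). LCP1, the plastin of blood cells, had 3, 5 and 3 counts in A375 si-NT samples, 0, 0 and 2 in A375 si-FOSL1, 8, 4 and 10 in 1205Lu si-NT and 3, 5 and 3 in 1205Lu si-FOSL1. It did not pass the filter on low counts and was not tested, which leaves 8 of the 9 genes in each comparison.

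EZR, the membrane linker of the group, fell in 1205Lu from 111.6, 115.9 and 113.0 CPM to 88.2, 88.6 and 90.6 CPM (log2 fold change -0.36, SE 0.0331, adjusted p = 1.9e-08). A375 samples overlapped at 228.1, 218.2 and 215.6 against 225.9, 225.0 and 215.0 CPM, with a log2 fold change of 0.00 (interval -0.05 to 0.06, adjusted p = 0.92).

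**Figure D1:**
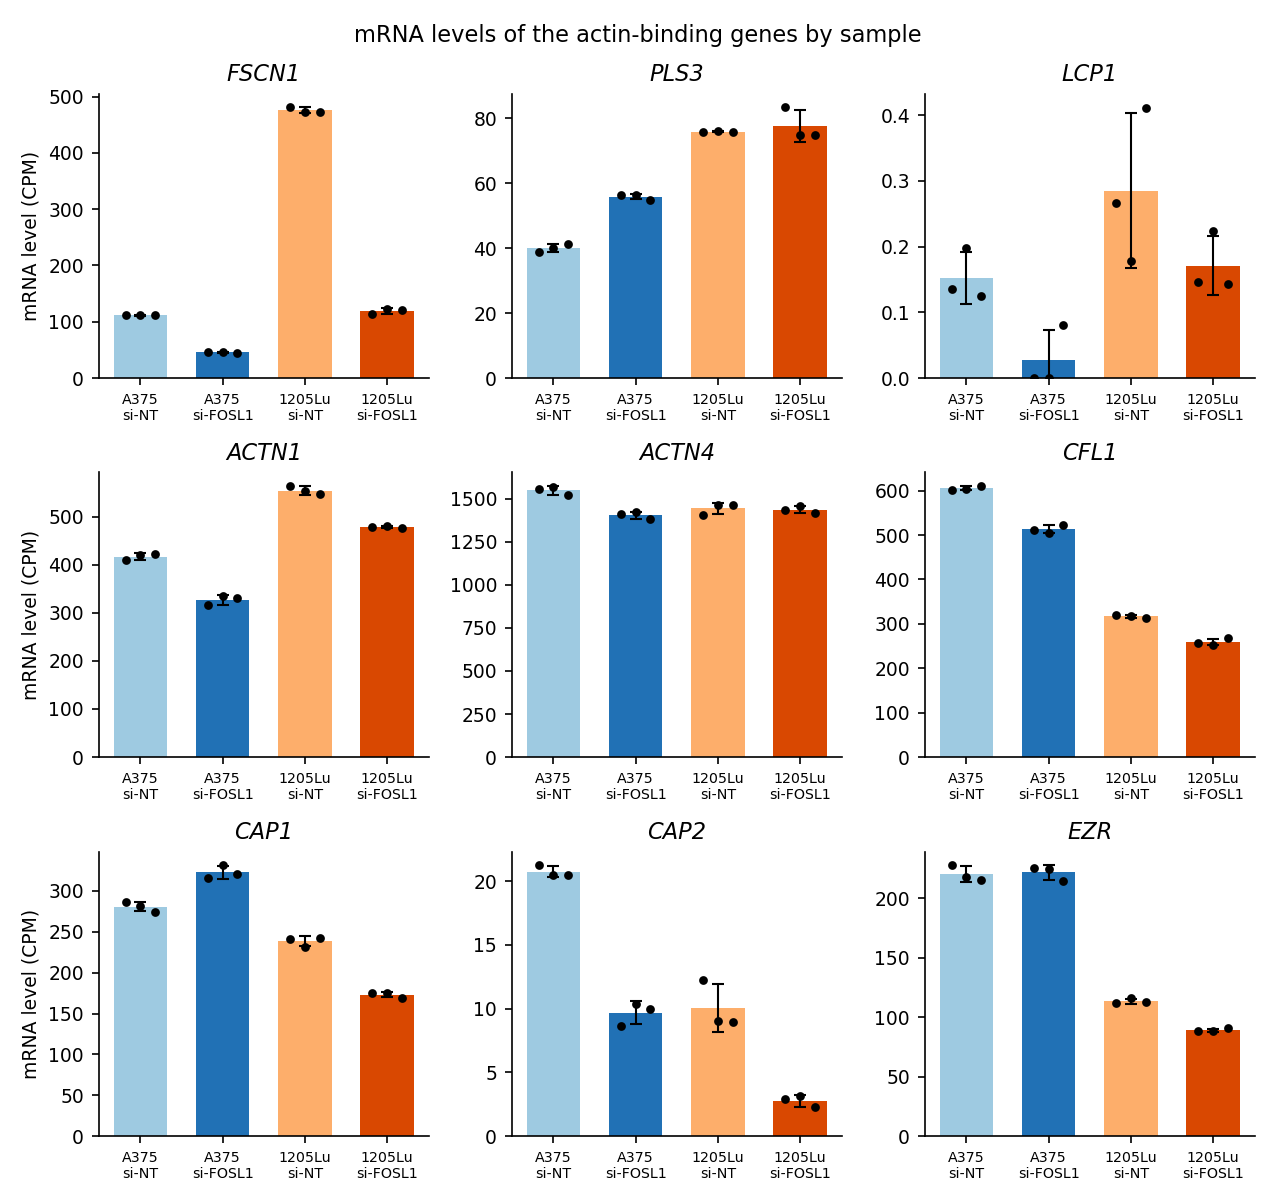
mRNA level (CPM, linear axes that start at 0) of each of the 9 genes in the 4 RNA-seq groups. Points are samples, bars are means and error bars are SD (n = 3). FSCN1 and CAP2 are lower in si-FOSL1 than in si-NT samples of both lines, CAP1 goes up in A375 and down in 1205Lu, and LCP1 stays under 0.5 CPM.

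Counted together, 5 of the 8 tested genes fell in A375 at an adjusted p under 0.05, 2 rose and EZR did not pass. Of all genes tested in A375, 25.1% fell and 25.7% rose by this rule. In 1205Lu, 6 fell, none rose, and PLS3 and ACTN4 did not pass, where 19.9% of all genes fell and 20.6% rose. With the further demand of an absolute log2 fold change over 1, only FSCN1 and CAP2 fell, in A375 as in 1205Lu, and no member rose. The share of all genes that fell by this stricter rule was 2.79% in A375 and 2.04% in 1205Lu, and the share that rose was 2.77% and 1.09%. The median log2 fold change of the 8 genes was -0.20 in A375 and -0.34 in 1205Lu, against a median of all tested genes that rounds to 0.00 in both. The members and the gene lists below were chosen with earlier results of these data known. These counts and shares therefore describe the genes and are no test of the group.

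**Figure D2:**
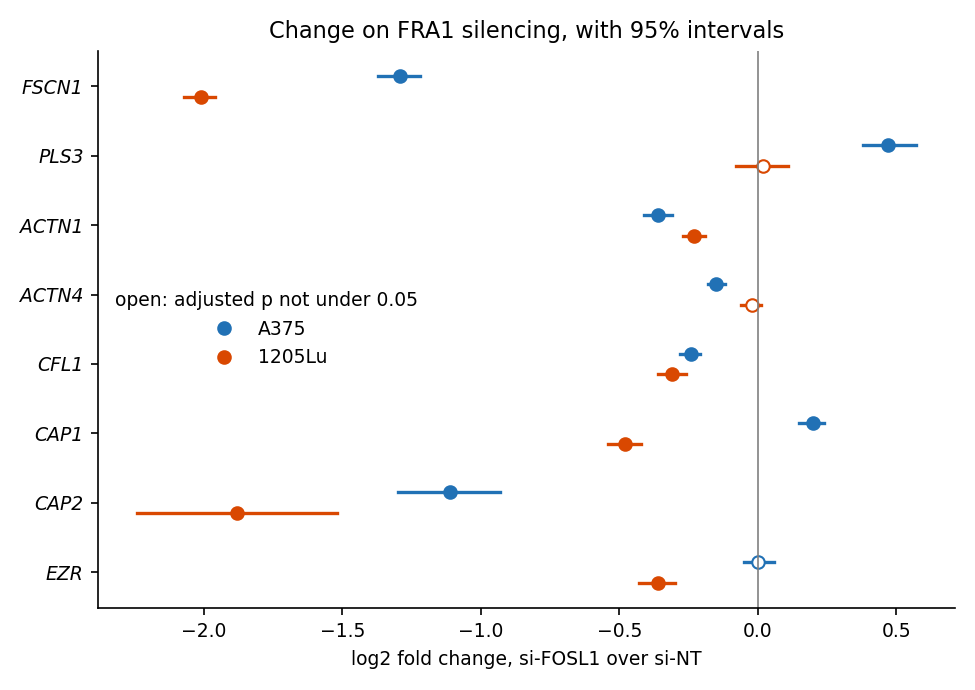
Log2 fold change of si-FOSL1 over si-NT (horizontal axis) for the 8 tested genes, with 95% intervals, in A375 (blue) and 1205Lu (orange). Filled points passed an adjusted p under 0.05. FSCN1 (-1.29 and -2.01) and CAP2 (-1.11 and -1.88) lie apart from the other genes, and PLS3, ACTN4 and EZR each have an open point in a single line.

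A model of the 12 samples with an interaction term asked whether the response to silencing was the same in A375 and 1205Lu. The effect was more negative in 1205Lu for FSCN1 (difference in log2 fold change -0.71, SE 0.0427, adjusted p = 1.4e-12), CAP2 (-0.76, SE 0.195, adjusted p = 0.0035), CAP1 (-0.66, SE 0.0374, adjusted p = 3.8e-13), PLS3 (-0.45, adjusted p = 3.8e-06) and EZR (-0.36, adjusted p = 2.7e-07). For ACTN1 and ACTN4 it was less negative in 1205Lu, by 0.14 (adjusted p = 0.0011) and 0.13 (adjusted p = 1.2e-04). CFL1 did not pass (-0.05, interval -0.12 to 0.01, adjusted p = 0.21), although DESeq2 (-0.08, adjusted p = 0.030) and upper-quartile normalization (-0.10, adjusted p = 0.011) both called it. Thus 7 of 8 genes differed between the lines, where 31.9% of all genes did. Of the other actin genes described below, 58.7% of the 121 tested did. FOSL1 itself fell less in 1205Lu (log2 fold change -2.84, against -4.01 in A375), and its part in these differences was not tested.

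The lines also differed before silencing. FSCN1 in 1205Lu controls stood at 449% of its level in A375 controls (log2 difference 2.17, SE 0.0237, adjusted p = 9.6e-24). PLS3 (0.99) and ACTN1 (0.48) were higher in 1205Lu as well, whereas CAP2 (-0.96), EZR (-0.89), CFL1 (-0.86) and CAP1 (-0.16) were lower, all with an adjusted p of 1.1e-05 or less. ACTN4 did not pass in this comparison (-0.03, adjusted p = 0.11), but 8 alternatives called it lower in 1205Lu (-0.16 to -0.05), among them those without 1205Lu sample 2 or 3 or any A375 sample. That makes 3 genes higher and 4 lower, where 38.8% of all genes were higher in 1205Lu and 39.2% lower.

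On a scale per transcript length (CPM per kb of the canonical transcript), CFL1 led in A375 controls at 486 ± 3.39 (SD, n = 3), followed by ACTN4 (310.5), ACTN1 (112.0), CAP1 (107), EZR (72.3), FSCN1 (40.1), PLS3 (12.2), CAP2 (7.10) and LCP1 (0.0419). FSCN1 was thus the sixth in A375 controls. In 1205Lu controls it was the third, at 171 ± 1.73 CPM per kb, behind ACTN4 (289.5) and CFL1 (255) and ahead of ACTN1 (149), CAP1 (90.8), EZR (37.2), PLS3 (23.1), CAP2 (3.44) and LCP1 (0.0783). Silencing moved FSCN1 to the seventh place in A375 (16.4 ± 0.326), where its samples overlapped those of PLS3 (17.0 ± 0.263), and to the fifth in 1205Lu (42.8 ± 1.74). Other neighbours in these orders did not overlap in any of the 4 groups.

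Genes whose levels followed FSCN1 most closely over the 12 samples, by Pearson's r of log2 CPM among 9329 protein-coding genes, were HYOU1 (0.993), an endoplasmic reticulum chaperone, SH3BGRL3 (0.991), ANKRD36C (0.987), PNN (0.987), a splicing-associated nuclear protein, and TBCD (0.986), a tubulin folding cofactor. The 12 points come from 4 groups of 3, so that each r rests mainly on the group means. All 5 genes were highest in 1205Lu controls and lowest in silenced A375 cells, as was FSCN1, by which they were picked. HYOU1, for example, had a mean of 368 CPM in 1205Lu si-NT, 243 in 1205Lu si-FOSL1, 252 in A375 si-NT and 193 in A375 si-FOSL1. Among the members, ACTN1 was the closest (0.935), CAP2 had 0.015, and EZR had the lowest value (-0.580). CAP2 fell with FSCN1 within each line but was lower in 1205Lu, where FSCN1 was higher.

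Another 125 genes of the actin machinery were grouped by role to set the members beside their pathway. In A375, 116 of them were tested, of which 37 fell and 43 rose (median log2 fold change 0.02). In 1205Lu, 59 of 119 fell and 17 rose (median -0.18). With the fold limit, 6 fell and 1 rose in A375, and 5 fell and 1 rose in 1205Lu. Beside these counts and those of the classes below stand the shares of all genes given above, 25.1% that fell and 25.7% that rose in A375, and 19.9% and 20.6% in 1205Lu. For the fold limit these shares were 2.79% and 2.77% in A375, and 2.04% and 1.09% in 1205Lu.

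The nucleation and elongation group, which starts and extends filaments, had 5 of the 6 falls past the fold limit in A375 and 1 of the 5 in 1205Lu. 15 of its 38 tested genes fell and 12 rose in A375, and 20 of 39 fell and 6 rose in 1205Lu. WASF1 and WASF3 (WAVE proteins that switch on the Arp2/3 complex) fell in A375 by 1.79 and 1.53 on the log2 scale, and in 1205Lu by 0.60 and 0.85. ARPC5, a subunit of Arp2/3, fell by 1.1 and 1.39. COBL, a nucleator, fell by 1.28 and 0.68. The formin FMN2 fell in A375 (-1.04, adjusted p = 2.1e-12) and was not called in 1205Lu (0.14, adjusted p = 0.36).

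Among monomer-binding and disassembly genes, the class of CAP1, CAP2 and CFL1, 8 of 23 fell and 8 rose in A375, while 13 of 22 fell and 4 rose in 1205Lu. TWF1 (twinfilin, which holds actin monomers and caps filaments) fell in both lines, by 1.75 and 1.47, from 159 ± 5.01 to 47.5 ± 2.704 CPM in A375 and from 46.0 ± 1.05 to 16.8 ± 0.710 CPM in 1205Lu (SD, n = 3). CORO1A, a coronin best known from leukocytes, fell in 1205Lu (-1.12, adjusted p = 0.0010), from a range of 2.63 to 3.204 CPM to one of 1.07 to 1.83 CPM. The summed leukocyte markers went from 17.8 to 18.8 CPM down to 7.46 to 8.61 CPM in the same samples. Nearly all of that was CD68, and the leukocyte marker PTPRC lay at or under 0.432 CPM. The sum also fell in A375, from 78.3 to 80.25 CPM down to 56.75 to 61.4 CPM. CORO1A was not called there (-0.08, adjusted p = 0.74). The part of other cells in the fall of CORO1A in 1205Lu was not tested.

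Further from FSCN1 in role, 9 of 19 membrane linkers rose and 3 fell in A375, whereas 1 rose and 9 fell in 1205Lu. ANK3, an ankyrin that ties membrane proteins to spectrin, rose in A375 (0.89, adjusted p = 7.0e-14) and fell in 1205Lu (-1.54, adjusted p = 1.8e-07). Of the actins and tropomyosins, 3 of 7 rose and 3 fell in A375, and 6 of 7 fell in 1205Lu with 1 that rose. TPM3, a tropomyosin that coats filaments, fell by 0.50 and 1.00. Capping and severing genes rose in 6 and fell in 2 of 15 cases in A375, and rose in 1 and fell in 5 of 14 in 1205Lu. TMOD1, which caps the slow-growing end, rose in A375 (1.68, adjusted p = 6.1e-07) from a low level of 1.37 ± 0.274 CPM, and had a value of -0.14 in 1205Lu (adjusted p = 0.58). In the bundling and crosslinking class of FSCN1 itself, 6 of 14 fell and 5 rose in A375, and 6 of 18 fell and 4 rose in 1205Lu. None of its genes other than FSCN1 fell past the fold limit, and SYNPO, a partner of alpha-actinin, rose by 0.67 in A375 and by 1.45 in 1205Lu.

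**Figure D3:**
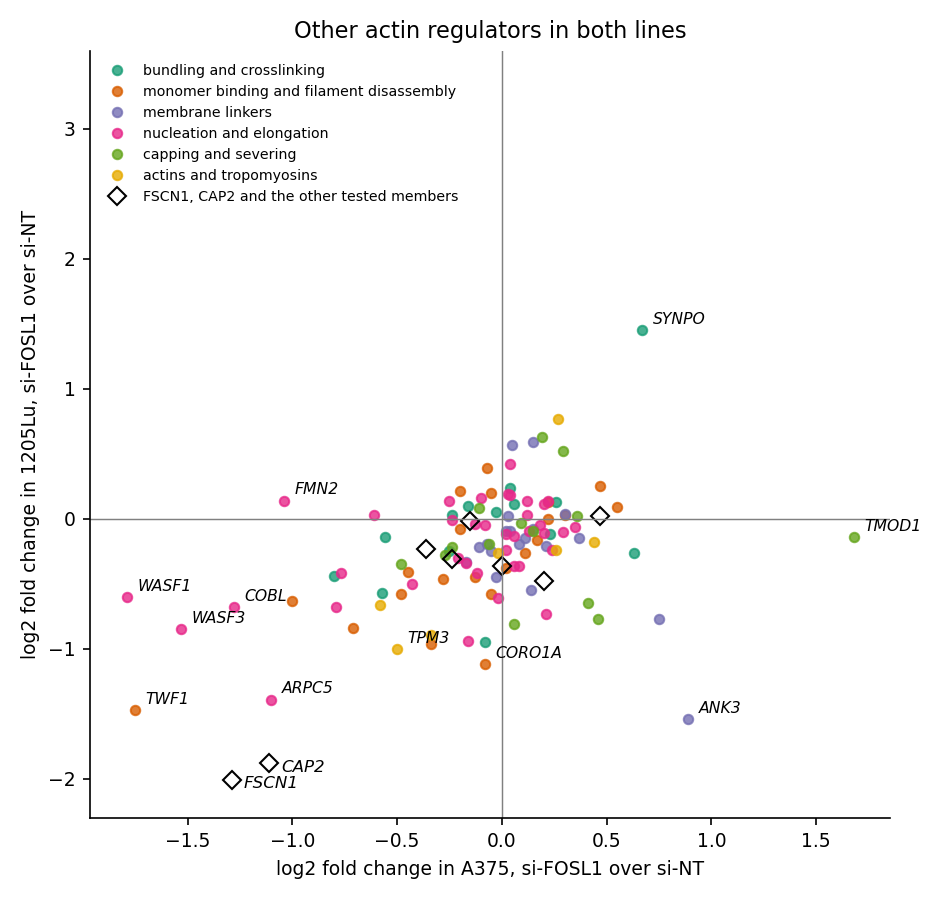
Log2 fold change on FRA1 silencing in A375 (horizontal axis) and 1205Lu (vertical axis) for the other actin regulators tested in both lines, colored by role, with the 8 tested members as open diamonds and the genes past the fold limit named. FSCN1 and CAP2 lie in the lower left corner, near TWF1 and ARPC5, and ANK3 lies at 0.89 and -1.54.

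Cut&Run showed where FRA1 lay at these genes. A peak was taken as enriched when no FRA1 sample of the line had fewer than 10 reads or fewer than 4 reads for each IgG read, after 1 was added to the IgG count, a rule with no test because each line has 1 IgG library. In A375, 18 of the 32 peaks (56.2%) were enriched, against 57.4% of all consensus peaks. In 1205Lu it was 3 of 32 (9.38%), against 7.09% of all. These shares depend on the rule, since it compares raw counts and FRA1 libraries of A375 were the deepest. After scaling to the same total in peaks, 1 of the 32 peaks was left in A375, where 1.71% of all peaks were.

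The peak over the FSCN1 start (chr7:5591323-5593367) held 236, 365 and 292 reads in the A375 FRA1 samples and 27 reads in IgG. In 1205Lu it held 47, 30 and 30 reads, below the IgG count of 49. Raw FRA1 reads at this start were therefore 8.43 to 13.0 times IgG plus 1 in A375, and not above IgG in 1205Lu. These ratios were not scaled for depth. A375 FRA1 libraries held 3354095 to 5316527 reads in peaks, against 383994 in IgG. Those of 1205Lu held 583750 to 897407, against 314569. By edgeR with TMM scaling, this peak was not called different between the lines (-0.29, adjusted p = 0.28). This is the peak with the AP-1 letters at -688 bp printed above.

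The second FSCN1 peak (chr7:5595366-5596753), 3243 bp past the first start and clear of annotated exons, had reads in both lines. Its edge lay 680 bp from another, later annotated start of FSCN1, so it too is a peak within 3 kb of a start. A375 samples had 145, 202 and 149 reads against 12 in IgG, and 1205Lu samples had 97, 136 and 98 against 26. In 1205Lu this was 3.59 to 5.04 times IgG plus 1, short of the 108 reads that the rule asked of each sample. By raw reads the start peak was ahead in A375 and the inner peak in 1205Lu. Over IgG plus 1, however, the inner peak was ahead in both lines, at 11.2 to 15.5 times in A375 against 8.43 to 13.0 times at the start, although these ranges overlapped in A375.

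CAP2 had 3 peaks. Its intronic peak (chr6:17417415-17418797, 24511 bp past the start) held 277, 415 and 356 reads in A375 against 10 in IgG, and 3, 1 and 3 reads in 1205Lu against 7 in IgG. The peak over the CAP2 start (chr6:17393168-17394671) held 85, 148 and 92 reads against 12 in A375, and 6, 8 and 15 against 13 in 1205Lu. By the raw-count rule, both of these peaks were enriched in A375 and at or near IgG in 1205Lu, whose FRA1 libraries were shallower. The start peak was 6.54 to 11.4 times IgG plus 1 in A375, and the intronic peak 25.2 to 37.7 times. DESeq2 did not call the start peak different between the lines (-0.60, adjusted p = 0.25). CAP2 mRNA fell further in 1205Lu, and a relation to these reads was not tested.

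ACTN4 had 10 peaks, the most of the 9 genes, and all 3 that were enriched in 1205Lu. The strongest (chr19:38683136-38685128, in an intron 36483 bp past the start) held 1521, 2257 and 1866 reads in A375 against 37 in IgG, and 270, 577 and 366 in 1205Lu against 14. Reads were 40.03 to 59.4 times IgG plus 1 in A375 and 18 to 38.5 times in 1205Lu, which made it the peak furthest above IgG in both lines. AP-1 letters from this peak are printed above. The other 2, named here after their values were seen, lay at 45103 bp (331, 530 and 409 against 32 in A375, and 91, 194 and 163 against 21 in 1205Lu) and at 8754 bp (33, 45 and 50 against 9, and 25, 37 and 43 against 3). ACTN4, the gene with the most FRA1 reads, was among those with the smallest mRNA changes. Its 10 peaks lie along a gene of 83941 bp, whereas FSCN1 spans 13840 bp and had 2 peaks. A relation between FRA1 reads and mRNA change was not tested.

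**Figure D4:**
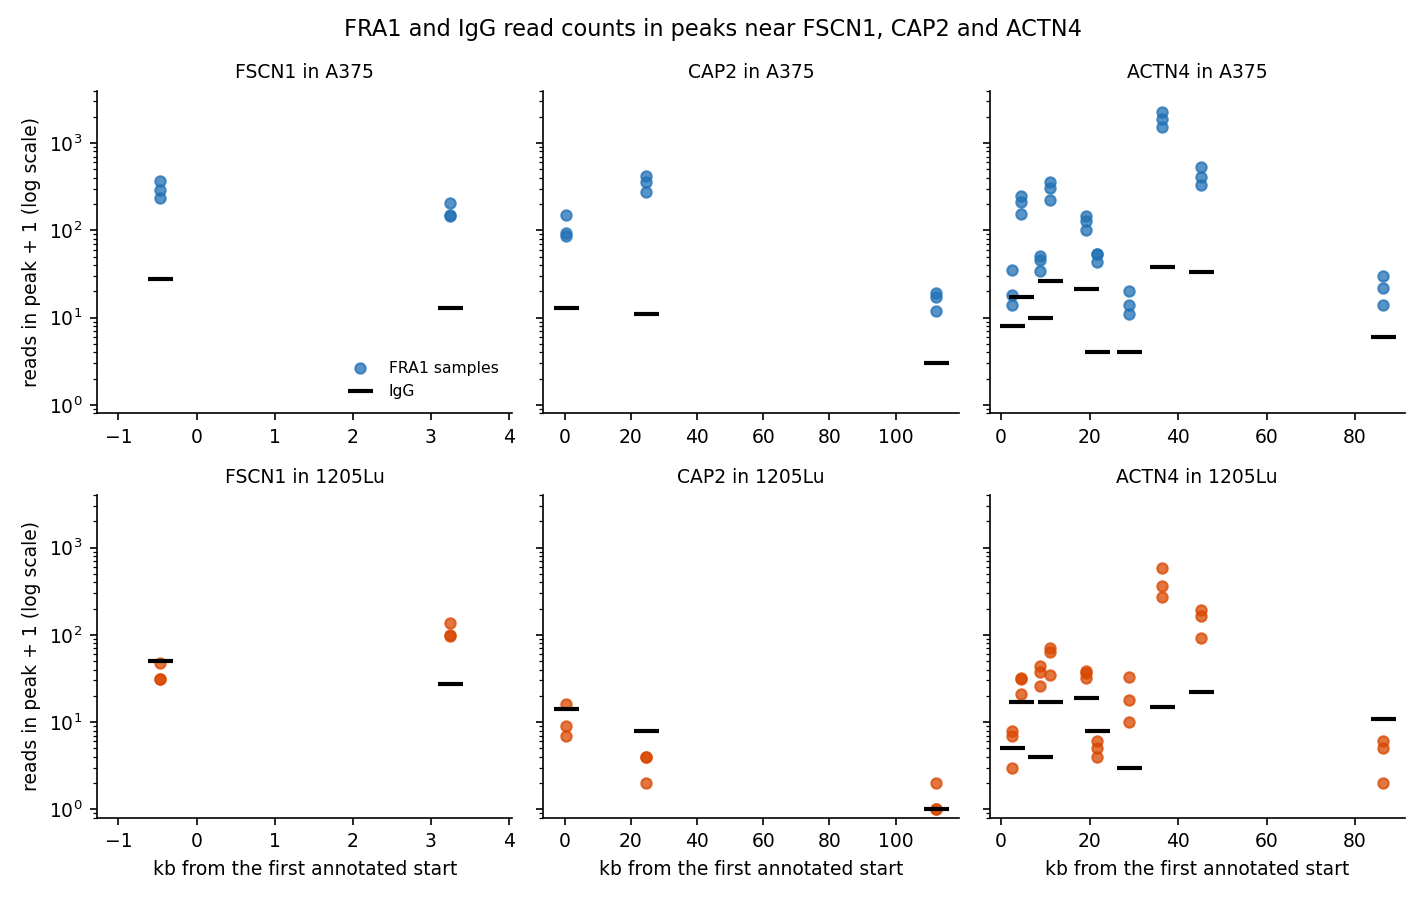
Reads plus 1 (log scale) in each peak near FSCN1, CAP2 and ACTN4 by distance from the first annotated start (kb, scales differ between genes), for FRA1 samples (points) and IgG (bars), in A375 (upper row) and 1205Lu (lower row). In 1205Lu the FSCN1 start peak (47, 30 and 30 reads) lies at or below IgG (49), and the ACTN4 peak 36483 bp past the start stands highest in both lines.

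Peaks at the other starts were enriched in A375 for some members and not for others. The CAP1 start peak, 144 bp past the first start, held 133, 220 and 199 reads against 21 in A375 and 18, 42 and 21 against 16 in 1205Lu. The ACTN1 peak at -152 bp held 107, 179 and 151 against 17, and 20, 25 and 18 against 19. Both were enriched in A375, at 6.045 to 10 and 5.94 to 9.94 times IgG plus 1. The ACTN1 peak at 1580 bp (9.8 to 13.8 times), near a later start, was enriched there as well. So were the ACTN4 peaks within 3 kb of a start at 4464 bp (9.06 to 14.5 times) and 19271 bp (4.81 to 6.86 times). The ACTN1 peaks at 17172, 39056 and 94738 bp and the ACTN4 peak at 2410 bp were not. EZR had 43, 76 and 64 reads against 11 at 750 bp in A375, just short of the rule, and 11, 4 and 9 against 13 in 1205Lu. The other EZR peak, named here after its values were seen, lay in an intron at 34513 bp. It was enriched in A375 (14, 36 and 18 against 1) and held 3, 1 and 4 against 12 in 1205Lu. PLS3, whose mRNA rose in A375, had an enriched peak at -471 bp there (61, 96 and 75 against 8) and 2, 1 and 6 reads against 3 in 1205Lu. The CFL1 peak at 2077 bp held 76, 104 and 116 against 40 in A375, and 33, 19 and 20 against 11 in 1205Lu. It also lies within 3 kb of a start of MUS81, and the 2 other CFL1 peaks lie inside SNX32, so that none of the 3 can be assigned to CFL1 alone. The single LCP1 peak, 91517 bp past the first start and beyond the end of the gene, held 32, 47 and 36 reads against 4 in A375 and 5, 1 and 1 against 4 in 1205Lu. LCP1, with 0 to 5 counts of mRNA in A375 samples, thus had an enriched peak nearby in that line.

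**Figure D5:**
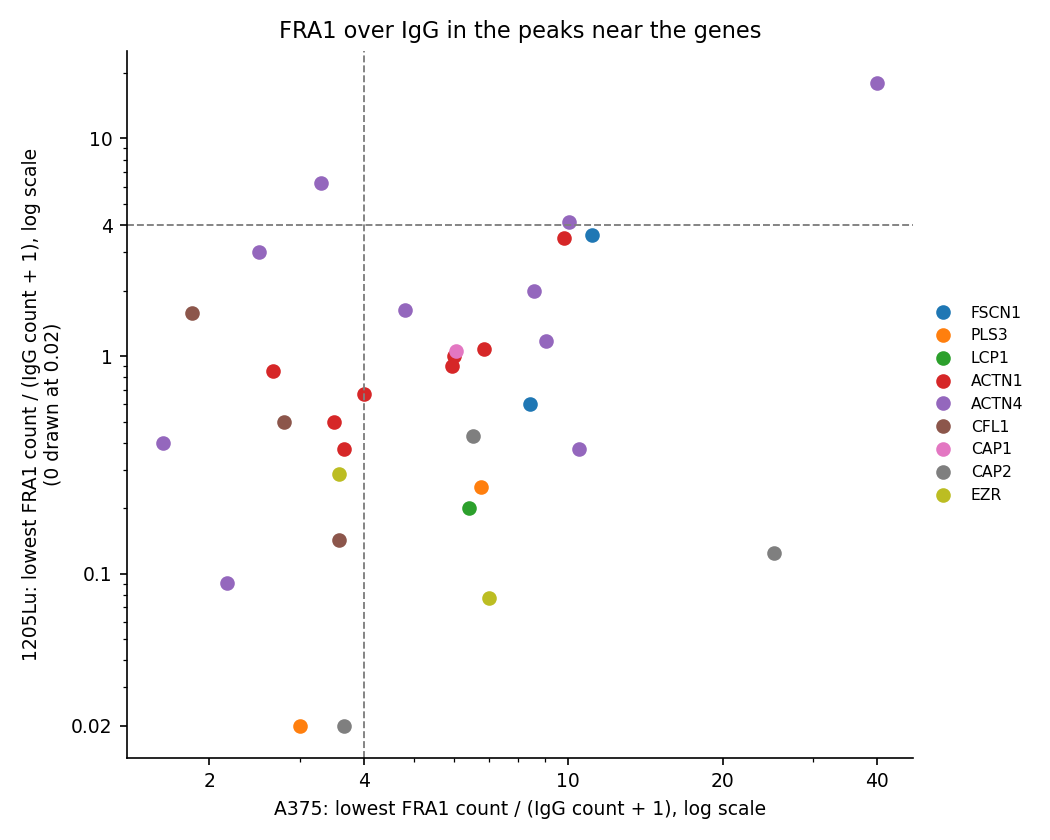
The lowest FRA1 count of the 3 samples divided by the IgG count plus 1 (log scales) in A375 and 1205Lu for the 32 peaks, colored by gene, with dashed lines at 4. The ACTN4 peak at 40.03 and 18 lies highest and furthest right, the second FSCN1 peak (11.2 and 3.59) lies just under the 1205Lu line, and the intronic CAP2 peak (25.2 and 0.125) lies far below it.

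FRA1 reads were also compared between the lines with edgeR after TMM scaling of the 5 samples (53300 peaks tested). 9 peaks near the members were called higher in 1205Lu and 4 higher in A375, where 24.3% and 29.0% of all peaks were. These directions rest on the scaling, because A375 libraries held several times the reads. The median log2 difference of all peaks was -0.24 with TMM, -0.43 with library totals, -0.02 with DESeq2 and -2.89 with no scaling. With no scaling 27 peaks near the members were called, all of them higher in A375, as were 45947 of all 53281 tested peaks. Library totals gave 9 higher in 1205Lu and 8 in A375, beside 11787 and 18162 of all 53300 peaks. DESeq2 gave 9 and 2, beside 12667 and 9826 of all.

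With TMM scaling, the second FSCN1 peak had a log2 difference of 2.11 toward 1205Lu (SE 0.179, adjusted p = 3.8e-10). This difference turned to -0.63 (adjusted p = 0.13) with no scaling. The FSCN1 start peak was not called (-0.29, interval -0.75 to 0.17, adjusted p = 0.28), although it was called lower in 1205Lu with library totals (-0.51, adjusted p = 0.016), with no scaling (-2.95, adjusted p = 7.1e-10) and among peaks with at least 10 counts in every sample (-0.92, adjusted p = 0.0011). The intronic CAP2 peak was lower in 1205Lu (-4.50, SE 0.362, adjusted p = 1.6e-10, range over alternatives -7.06 to -4.11), and so was the PLS3 peak at -471 bp (-1.97, SE 0.393, adjusted p = 1.6e-04, range -4.63 to -1.52). Both kept their call under every alternative in which they were tested, and neither was tested with at least 10 counts in every sample. The ACTN1 peak at 1580 bp (2.01) and the ACTN4 peaks at 8754 bp (2.4), 19271 bp (0.88) and 45103 bp (1.11) were called toward 1205Lu, and all 4 turned to the other sign with no scaling.

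Several calls hung on single libraries. The CAP2 start peak (-0.77, adjusted p = 0.028) was not called without A375 sample 1 or 2 or 1205Lu sample 1 or 2 (adjusted p from 0.084 to 0.36). The LCP1 peak (-1.30, adjusted p = 0.043) was not called without any A375 sample or 1205Lu sample 2 or 3 (0.060 to 0.19). The CFL1 peak at 2077 bp (0.70, adjusted p = 0.025) was not called without A375 sample 2 (0.092) or 1205Lu sample 1 (0.077), and the ACTN1 peak at 94738 bp (1.62, adjusted p = 0.026) was not called without A375 sample 3 (0.059) or 1205Lu sample 1 (0.080) or 2 (0.064). The strongest ACTN4 peak (0.39, interval -0.07 to 0.85, adjusted p = 0.15) was called without 1205Lu sample 1 (0.89, adjusted p = 1.1e-20).

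AP-1 letters (TGACTCA, either strand) lay within 100 bp of the centre in 9 of the 32 peaks (28.1%), against 28.6% of all consensus peaks and 3.52% of windows 2000 bp away. Anywhere in the peak they were found in 17 (53.1%), against 57.7% of all. Promoter windows around gene starts from RefSeq (GRCh38) were matched for 8 of the 9 genes (15 windows, FSCN1 not among them). The AP-1 letters were in 1 of these, at EZR, against 4.95% of all 35116 windows. A match of letters is a description and not a measured binding site.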

How the data were processed

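RNA-seq in 12 samples and Cut&Run in 8 were analysed. Per the labels and the study's methods, the authors trimmed reads with cutadapt 1.8.1, aligned RNA-seq reads to GRCh38 with STAR 2.7.7a and deposited the RSEM 1.3.0 expected count of each gene, not normalized. Cut&Run reads were aligned with Bowtie2 2.4.1, peaks were called with MACS2 2.1.1.20160309, and the deposited values are read counts per consensus peak and sample, not normalized. The sources used here do not state whether the caller ran on single or on pooled samples.

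Expected counts, deposited by the authors as whole numbers, were tested with edgeR 4.0.16 in R 4.3.3 (filterByExpr, TMM, glmQLFit, glmQLFTest, Benjamini-Hochberg over all tested genes or peaks). Silencing was fitted within each line, and control cells were compared without the silenced ones. CPM used TMM library sizes over all 12 samples, with no pooling of replicates. Gene positions, starts and transcript lengths were taken from GENCODE 44, a later release than the authors' gene model, and motifs were searched with Python 3.11.15. Pseudogenes and antisense genes of the members held at most 31 counts per sample. Intervals cover the spread between samples, and read counts below about 10 are imprecise.

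The members and gene lists were chosen with earlier results of these data known. Named were the 9 members, FOSL1, the pathway genes past both limits (adjusted p 0.05, log2 fold change 1 in size) in a line (11 qualified, limit 12), the 5 protein-coding genes closest to FSCN1 (mean of at least 10 CPM), in each line and gene the peak with most FRA1 reads, and peaks within 3 kb of a member's start. Some sequences and motif matches under the peaks are not reported here. The tests were tried on simulated data. Alternatives were DESeq2 1.42.0, other scalings and filters, a replicate block, all samples in 1 fit, other limits over IgG, other distances from a gene, and each sample left out in turn.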

Additional observations from a re-analysis of the deposited data

Results flagged for a closer look

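The change on FRA1 silencing differed between the lines by the interaction test (edgeR, adjusted p under 0.05) for 7 of the 8 tested members and all 11 named pathway genes, where the latter had been named for a large change in at least 1 line. Values are the log2 fold change in 1205Lu minus that in A375. Among members these were -0.76 for CAP2, -0.71 for FSCN1, -0.66 for CAP1, -0.45 for PLS3, -0.36 for EZR, 0.13 for ACTN4 and 0.14 for ACTN1. CAP1 stood out in that it rose in A375 (0.20) and fell in 1205Lu (-0.48), with no overlap of groups in either line.

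Among the pathway genes, the effect was more negative in 1205Lu for ANK3 (-2.42), TMOD1 (-1.81), CORO1A (-1.02), TPM3 (-0.49) and ARPC5 (-0.28). It was less negative, or more positive, in 1205Lu for WASF1 (1.2), FMN2 (1.2), SYNPO (0.79), WASF3 (0.69), COBL (0.61) and TWF1 (0.30). ANK3 was the single gene of these 11 called in opposite directions, at 66.3 ± 2.07 against 35.6 ± 0.399 CPM in A375 and 2.34 ± 0.264 against 6.74 ± 0.383 CPM in 1205Lu (si-FOSL1 against si-NT, SD, n = 3). The log2 fold change of FOSL1 itself was -4.01 in A375 and -2.84 in 1205Lu, and the part of this gap in the differences above was not tested.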

How the results depend on the processing

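FSCN1 kept its direction and call under every alternative, and without any 1 sample its log2 fold change lay between -1.31 and -1.28 in A375 and between -2.03 and -1.98 in 1205Lu. With the replicate number as a block it was -1.29 and -2.01, and the block changed no call among members (7 called in A375, 6 in 1205Lu) and no count of calls by over 1.5 times. Same-numbered samples did not deviate together over all genes kept (correlations from -0.0162 to 0.0188). No pairing by number was therefore seen, but one confined to few genes could be missed. Among values of single genes under alternatives, 857 kept direction and side of the threshold. The 8 that changed sign were never called: EZR in A375 (-0.01 to 0.03 without 1 sample) and, with the range without 1 sample, CORO1A in A375 (-0.15 to 0.02), PLS3 (-0.03 to 0.05), TMOD1 (-0.30 to 0.02) and FMN2 (-0.01 to 0.25) in 1205Lu. The other 10, of CFL1 between lines and ACTN4 at baseline, passed the threshold where the main value did not.

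Enrichment counts moved with the rule. In A375 the 18 peaks became 29 at 2 times IgG (81% of all peaks), 9 at 8 times IgG (26.7%), 1 with counts scaled to the same total (1.71%), 38 of 64 within 50 kb, and 19 to 22 without 1 sample (57.7% to 69.5%). In 1205Lu the 3 peaks became 6 at 2 times IgG (15.6% of all peaks), 1 at 8 times IgG (2.06%), 5 of 64 within 50 kb, and 3 to 5 without 1 sample (7.15% to 12.9%), with 5 without sample 1. Between lines, 13 called peaks became 27 with no scaling and 35 within 50 kb, and 11 to 14 without 1 sample. Over all peaks, 28405 calls became 49379 with no scaling and 8673 with at least 10 counts in every sample. With no scaling the sign turned for FSCN1 at 3243 bp (-0.63), CFL1 (-1.89), ACTN1 at 94738 (-0.98), 39056 (-2.13), 17172 (-2.02) and 1580 bp (-0.75), and ACTN4 at 2410 (-1.93), 8754 (-0.39), 19271 (-1.87), 36483 (-2.34) and 45103 bp (-1.65). Signs also turned, without a call, for the start peaks of CAP1 (0.09 with DESeq2, -0.49 to 0.34 without 1 sample), EZR (0.05, -0.34 to 0.14) and ACTN1 (0.13, -0.19 to 0.13), and for ACTN4 at 4464 bp (-0.32 to 0.15 without 1 sample) and at 36483 bp (-0.22 with at least 10 counts). The causes were not tested, apart from the scaling itself. Leaving out 1205Lu sample 1 leaves 1 sample in that line, assumed to vary like A375.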
